A study of Mus musculus with 49 samples.

Results

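The comparison set cells recovered from the synovial fluid of arthritic ankles against the leukocytes circulating in blood, both taken 12 days after arthritis had been started with a first injection of K/BxN serum. The autoantibodies in that serum inflame the joints of the healthy mice that receive it. The samples were taken by their titles, and came to 3 arrays of fluid cells and 3 arrays of blood leukocytes out of 49 in the series, which also profiled whole ankle. All recipients were male B6 mice aged 6 weeks with no other allele or agent in the labels. Fluid cells, labelled as whole synovial fluid cells, were collected while the ankles were being dissected. Their RNA was taken up in Trizol and amplified with the MessageAmp and Enzo kits. Blood leukocytes were what remained after red cells had been lysed, and their RNA was also taken up in Trizol and amplified with the MessageAmp kit. The fluid was not sorted and may hold any cell that came out with it, so the way the cells were prepared and the place they came from cannot be told apart. The labels call the blood samples biological replicates and say nothing of this kind for the fluid samples, so p-values measure the spread between samples, which may be technical.

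In this form of arthritis antibody complexes in the joint engage Fc receptors and complement. Neutrophils then leave the blood along gradients of leukotriene B4, complement fragments and chemokines. Among the chemokines, the ligands of the receptor CXCR2 draw neutrophils in particular. Monocytes follow, and become macrophages that take up debris, release cytokines and make further chemokines. The lining of the joint also holds fibroblasts, which produce matrix and, when inflamed, the proteases that break it down. The comparison addresses how cells that have settled in the joint differ from those still in circulation.

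Each gene was read from 1 probe set, as the log2 of an intensity that the authors had normalized. Differences are fluid minus blood on this log2 scale, with the standard error, and p-values carry a Benjamini-Hochberg adjustment across the 8251 genes. A gene is called where the adjusted p lies under 0.05. The 34 negative control probe sets of the array, which should bind no mouse transcript, had a 95th percentile of 6.85 (log2), and a fold is given only where both group means exceed it. Where 1 mean lies under it, the fold is a lower bound, written as at least so many fold, and it sets the bright mean against 6.85. Median intensity of the 6 arrays lay between 58.7 and 62.8. Arrays correlated at r of 0.982 to 0.991 within fluid and 0.970 to 0.990 within blood, and at 0.895 to 0.914 across them. Actin probe sets at the 3′ end exceeded those at the 5′ end, a measure that bears on RNA integrity, and this log2 excess was 2.24, 3.02 and 1.88 on the fluid arrays and 2.06, 2.03 and 2.52 on the blood arrays, which overlap.

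The labels were checked against defining markers of 13 cell types. Neutrophil markers (5 of 6 measured, 4 called higher) summed to an intensity of 13352 to 16480 on the fluid arrays and 5328 to 8639 on the blood arrays. The sum includes S100a8 and S100a9, whose calls were lost in several alternatives given below. Monocyte or macrophage markers (5 of 6 measured, 5 called higher) summed to 4356 to 5056 in fluid and 575 to 904 in blood. Lymphocyte markers ran the other way. B cell markers summed to 374 to 401 in fluid and 4268 to 4619 in blood, T cell markers to 280 to 321 in fluid and 788 to 1225 in blood, and NK cell markers to 127 to 140 in fluid and 592 to 1065 in blood. The blood arrays therefore carried the markers of a leukocyte preparation, with red cell precursor markers (15359 to 22311, against 3896 to 5943 in fluid) despite lysis. The fluid arrays also carried fibroblast markers. These 5 genes summed to 17208, 12266 and 15951 on the 3 fluid arrays, against 410 to 584 on the blood arrays and 21165 to 24915 in whole ankle on the same day. None of the cartilage, endothelial, muscle or hepatocyte markers had a fluid mean above the negative controls. Markers of cells other than leukocytes were thus present in fluid, and matrix genes below are read beside this. In bulk RNA of this kind, more cells of a type and more RNA per cell cannot be told apart.

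**Figure D1:**
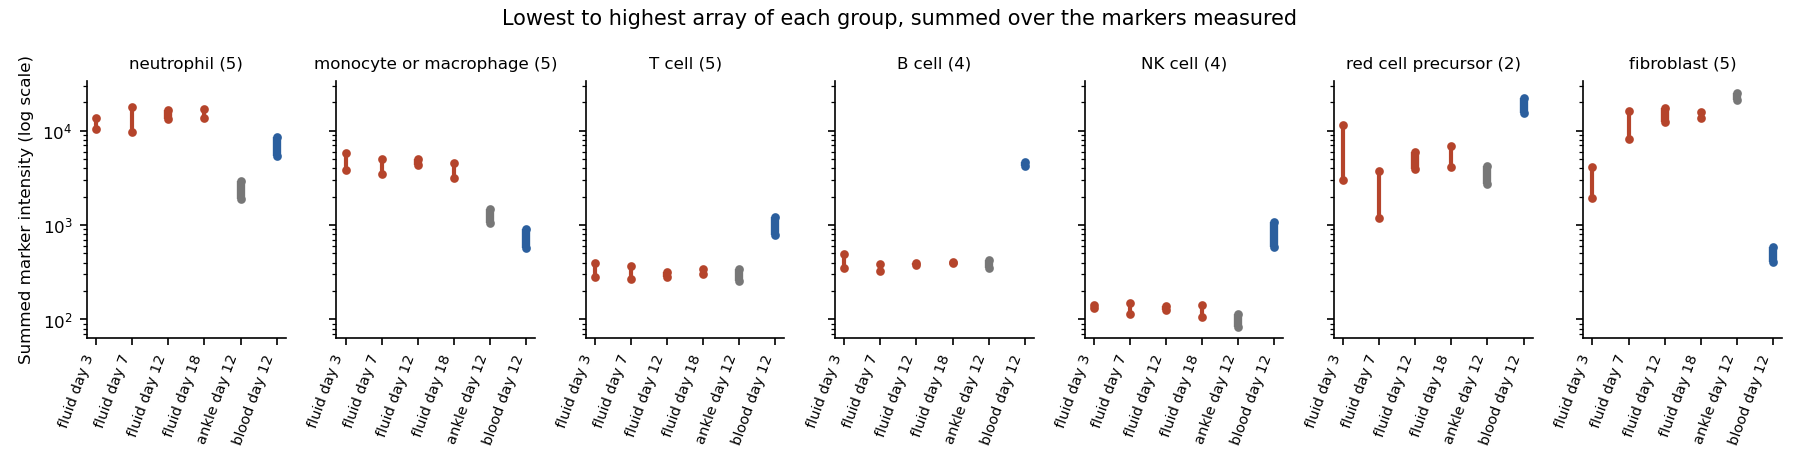
Summed marker intensity on a log axis, from the lowest to the highest array of each group, for 7 cell types with the number of markers measured in brackets; fluid of days 3, 7, 12 and 18 stands left, whole ankle of day 12 next and blood of day 12 last. At day 12, fluid lies above blood for neutrophil, monocyte or macrophage and fibroblast markers, and below it for T cell, B cell, NK cell and red cell precursor markers.

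Fluid cells and blood leukocytes differed widely. Of 8251 genes, 1426 (17.3%) were higher in fluid and 1249 (15.1%) were lower, with a median difference of -0.11 over all genes. The sides were unequal in size. A difference of at least 1 was found in 764 of the higher and 270 of the lower genes, and one of at least 3 in 98 and 27. The 3 fluid arrays all lay on one side of the 3 blood arrays in 1347 of the higher and 1145 of the lower genes. For 4554 genes neither mean exceeded the negative controls, and these include 397 of the higher and 592 of the lower genes, so many of the lower calls were made close to background. Both means exceeded the controls for 605 higher and 381 lower genes. The 15 genes with the largest rise included the matrix genes Dcn, Sparc, Col5a2, Lum and Col1a2, the macrophage genes Arg1 and C1qb, the chemokine Ccl2 and the metallothionein Mt2. The 15 with the largest fall were mostly genes of B and T lymphocytes, with the red cell genes Bpgm and Alas2 and the chemokine Ccl5. Counts of list members below are read against these shares of 17.3% and 15.1%.

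**Figure D2:**
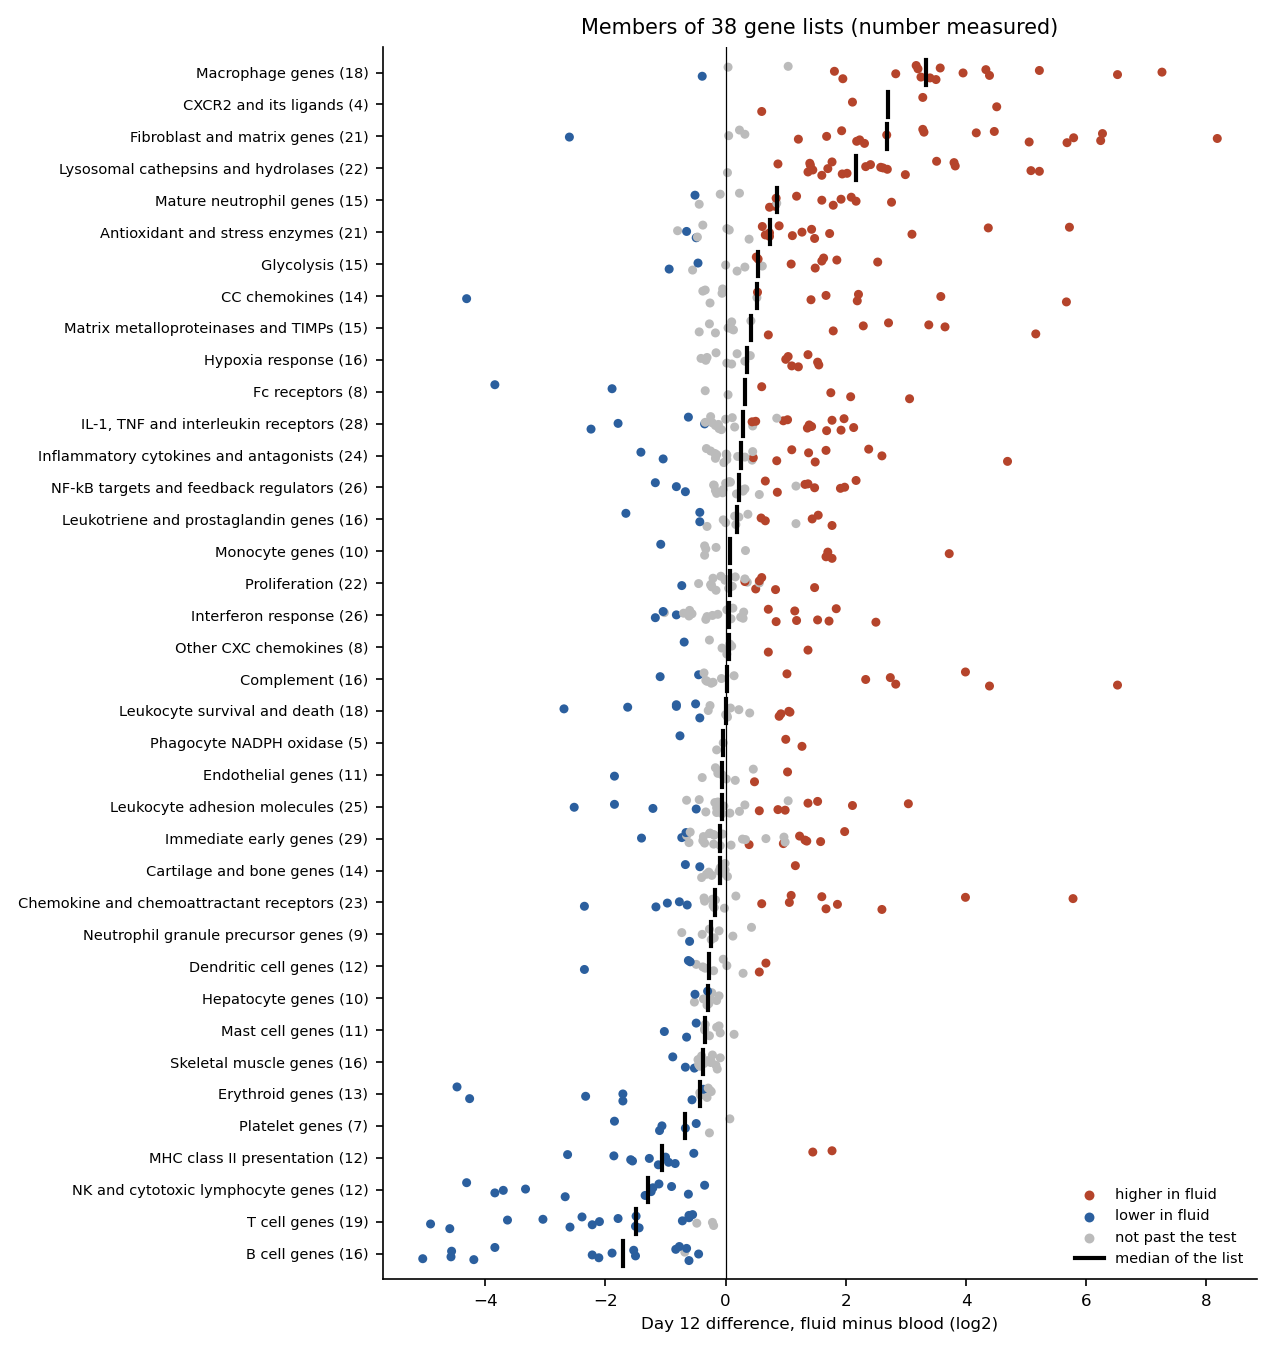
Day 12 difference (log2, fluid minus blood) of every measured member of 38 gene lists, coloured by its call, with the median of each list as a black bar. Macrophage genes have the highest median, 3.33, and B cell genes the lowest, -1.71.

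All 3 measured CXCR2 ligands were higher in fluid, and Cxcl1 and Cxcl5 were not above background in blood. Cxcl1 and Cxcl5 encode neutrophil chemoattractants made by many stromal and epithelial cells, and Cxcl2 one that phagocytes make readily. The promoters of Cxcl1 and Cxcl2 are shown because these neighbouring genes, both higher in fluid, share a kappaB match close to the start. Windows run from 250 bases before to 50 after the RefSeq start (GRCm38.p6), and capitals mark matches to GGGA and TTCC with any 2 bases between, sought on both strands, here a pair that overlap by all but 1 base.
Cxcl1 (chr5:90890995-90891294, + strand): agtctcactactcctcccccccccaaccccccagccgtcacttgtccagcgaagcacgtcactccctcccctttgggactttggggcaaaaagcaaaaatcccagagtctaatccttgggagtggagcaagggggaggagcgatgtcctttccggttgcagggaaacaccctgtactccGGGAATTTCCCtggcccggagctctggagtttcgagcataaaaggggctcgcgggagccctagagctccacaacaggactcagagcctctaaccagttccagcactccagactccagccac
Cxcl2 (chr5:90903649-90903948, + strand): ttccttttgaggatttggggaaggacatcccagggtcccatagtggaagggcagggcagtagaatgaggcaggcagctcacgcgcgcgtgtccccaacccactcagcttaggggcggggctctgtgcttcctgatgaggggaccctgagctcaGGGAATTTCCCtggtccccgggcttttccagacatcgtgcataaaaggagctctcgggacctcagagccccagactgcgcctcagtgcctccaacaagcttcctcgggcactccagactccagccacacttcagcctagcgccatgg
The motif, a simplified form of the site that NF-kB factors recognise, occurs in 441 of the 27025 genes with a promoter in the table (1.63%). It was found in 2 of the 3 genes of the CXCR2 list that have a promoter there, in 1 of 9 CC chemokine genes and in 2 of 23 NF-kB targets and feedback regulators. A match describes letters in the window and not binding.

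Cxcl1 measured 9.91, 8.73 and 9.04 (log2) on the fluid arrays and 4.70, 4.84 and 4.61 on the blood arrays. Every fluid array stood far above every blood array, and blood lay near the median of the negative controls, 4.40. The difference was 4.51 ± 0.40 (adjusted p = 1.28e-09), at least 5.21-fold. Cxcl5 measured 8.08, 7.03 and 7.94 in fluid and 4.41, 4.36 and 4.45 in blood, a difference of 3.28 ± 0.35 (adjusted p = 2.74e-08) and at least 1.78-fold. Cxcl2 was present on both sides, at 10.38, 9.78 and 10.27 in fluid and 8.74, 7.57 and 7.78 in blood. It was 4.33-fold higher in fluid (2.11 ± 0.51, adjusted p = 0.00205). The 3 ligands differed in where else they were high. Fluid lay 3.82 above whole ankle for Cxcl2, and 0.28 and 0.66 above it for Cxcl1 and Cxcl5. Cxcr2, the receptor, was called higher (0.60 ± 0.20, adjusted p = 0.0225), but both means lay under the negative controls (5.50, 4.75 and 5.42 in fluid, 4.70, 4.55 and 4.61 in blood). Its call was lost without fluid replicate 1, fluid replicate 3, blood replicate 2 or blood replicate 3, with adjusted p between 0.000324 and 0.127 over all alternatives. Cxcr2 was therefore not measured above background in either sample.

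CC chemokines attract monocytes, macrophages and lymphocytes. Of 14 measured, 7 were higher in fluid and 1, Ccl5, was lower, or 2 without blood replicate 1. Ccl2, the main ligand of the monocyte receptor CCR2, measured 9.84, 10.15 and 9.69 in fluid and 4.51, 4.16 and 3.99 in blood. The groups were widely apart, with a difference of 5.67 ± 0.26 (adjusted p = 2.06e-15) and at least 8.24-fold. Ccl7, which shares that receptor, measured 7.39, 6.77 and 6.98 in fluid and 3.27, 3.52 and 3.60 in blood (3.58 ± 0.28, adjusted p = 8.84e-11). Ccl3, a chemokine made by activated phagocytes, measured 10.46, 9.88 and 10.42 in fluid, against 8.47, 7.84 and 7.90 in blood, and was 4.55-fold higher (adjusted p = 1.76e-07). Ccl9 was 4.63-fold higher (2.21 ± 0.28, adjusted p = 6.69e-07), and Ccl4, a near relative of Ccl3, at least 2.49-fold (1.42 ± 0.29, adjusted p = 0.000436). Ccl8 was at least 3.11-fold higher (1.67 ± 0.25, adjusted p = 9.6e-06), and Ccl12 was higher by 0.53 with both means under the controls, a call kept among the fits without 1 array only when blood replicate 3 was left out. Ccl5, which cytotoxic and memory lymphocytes carry, was the exception at 7.4, 7.05 and 7.03 in fluid and 11.70, 11.58 and 11.15 in blood. It was 19.9-fold lower in fluid (-4.31 ± 0.32, adjusted p = 3.49e-11). Among other CXC chemokines, Cxcl12, a product of stromal cells that retains leukocytes, was higher by 1.37 ± 0.26 (adjusted p = 0.000168). Further probe sets of Cxcl12 gave 4.35 and 1.57, so the size of its difference depends on the probes. The lymphocyte chemokine Xcl1 fell by 0.69 on the log2 scale (adjusted p = 0.00977) with both means under the controls, a call lost without blood replicate 3.

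Of 23 receptors for chemoattractants, 9 were higher and 5 lower. Ackr3, a receptor that scavenges Cxcl12 without classical signalling, measured 10.09, 9.62 and 9.41 in fluid and 3.70, 3.77 and 4.33 in blood (5.78 ± 0.33, adjusted p = 1.45e-13). It stood 0.39 above its level in whole ankle. C3ar1, the receptor of the complement fragment C3a, measured 8.68, 7.91 and 8.81 in fluid and 4.47, 4.32 and 4.65 in blood (3.99 ± 0.31, adjusted p = 9.42e-11), and stood 3.16 above whole ankle. Ccr1, which binds Ccl3 and Ccl9, measured 8.41, 7.2 and 9.10 in fluid and 6.16, 5.40 and 5.36 in blood (2.60 ± 0.51, adjusted p = 0.000263). Ccr2, the receptor of inflammatory monocytes, measured 7.4, 8.27 and 8.13 in fluid, against 6.78, 5.81 and 6.18 in blood, and was at least 2.12-fold higher. Fpr2, a formyl peptide receptor of phagocytes, was at least 2.54-fold higher in fluid (1.60 ± 0.41, adjusted p = 0.00398). Receptors of lymphocytes lay on the other side. Ccr7, which leads lymphocytes and mature dendritic cells to lymph nodes, fell by 2.35 on the log2 scale, with both means under the controls, and Ccr6 was at least 2.17-fold lower (-1.16, adjusted p = 1.27e-07). Cxcr3, Cxcr5 and Ccr9 were also lower, Cxcr5 no longer called without fluid replicate 1, fluid replicate 3 or blood replicate 2. Ccr9 lost its call with a floor under dim values. With only genes above the negative controls tested, 2 receptors of the list were lower. Ltb4r1, the high-affinity receptor of leukotriene B4 on neutrophils, measured 7.72, 7.13 and 7.57 in fluid, against 7.2, 7.22 and 7.50 in blood, and the groups overlapped (0.17 ± 0.24, adjusted p = 0.609).

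Genes of mature neutrophils were more abundant in fluid, by less than the macrophage genes. Of 15 measured, 10 were higher and 1 lower, with a median difference of 0.85. Clec4d, a lectin receptor of neutrophils and monocytes, measured 11.51, 11.18 and 11.46 in fluid, against 9.27, 8.05 and 8.56 in blood, and was 6.75-fold higher (2.76 ± 0.41, adjusted p = 6.59e-06). Hdc, which makes histamine, measured 10.67, 10.01 and 10.89 in fluid, against 9.07, 8.0 and 8.24 in blood, and was 4.25-fold higher (adjusted p = 8.58e-05). Il1r2, the decoy receptor of interleukin 1, measured 11.84, 11.32 and 12.04 in fluid, against 10.02, 9.23 and 10.19 in blood, and was 3.77-fold higher (adjusted p = 0.000103). In all of these the lowest fluid array exceeded the highest blood array. Mmp9, a gelatinase stored in neutrophil granules, was 3.46-fold higher (1.79 ± 0.34, adjusted p = 0.000211), and a further probe set of the gene gave 2.07. Slpi, an inhibitor of neutrophil elastase, was 2.27-fold higher (adjusted p = 0.000242). The calprotectin subunits, the most abundant cytosolic proteins of neutrophils, were already high in blood. S100a9 measured 11.59, 11.99 and 12.13 in fluid and 11.29, 10.76 and 11.21 in blood (0.82 ± 0.30, adjusted p = 0.0361), and S100a8 was 1.65-fold higher (0.73 ± 0.26, adjusted p = 0.034). Both calls were lost under quantile normalization anew and when single arrays were left out, S100a9 without fluid replicate 2, fluid replicate 3, blood replicate 2 or blood replicate 3, and S100a8 without any array except blood replicate 1. Csf3r, the receptor of the neutrophil growth factor G-CSF, measured 10.03, 8.93 and 9.91 in fluid, against 9.37, 8.32 and 8.64 in blood, and did not pass (0.85 ± 0.35, adjusted p = 0.0627). Of 9 granule genes of neutrophil precursors, 1 was called, Mpo at -0.60 with both means under the controls, and 2 without blood replicate 1. Ly6g was called lower (-0.51, adjusted p = 0.0296) with both means under the controls and overlapping arrays, so it gave no measure of neutrophil number. Its call was lost without fluid replicate 1, fluid replicate 2, blood replicate 1 or blood replicate 3.

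Macrophage genes had the largest median of the 38 lists, 3.33, with 15 of 18 higher and 1 lower. Arg1, the arginase of alternatively activated and wound macrophages, measured 11.21, 11.31 and 11.31 in fluid and 4.07, 4.06 and 3.91 in blood. No other macrophage gene was further from blood, with a difference of 7.26 ± 0.35 (adjusted p = 5.78e-15) and at least 21.5-fold. C1qb, a chain of the complement component that macrophages make, measured 10.70, 10.54 and 11.22 in fluid and 4.20, 4.36 and 4.33 in blood (6.52 ± 0.22, adjusted p = 2.21e-18), and its partner C1qa was at least 11.3-fold higher. Blood held these transcripts at or near background. Apoe, a lipid carrier of macrophages and fibroblasts, measured 13.51, 13.37 and 13.60 in fluid, against 9.74, 9.18 and 9.70 in blood, and was 15.5-fold higher (adjusted p = 6.62e-13). Cd68, a lysosomal membrane protein of macrophages, measured 10.40, 10.37 and 11.05 in fluid, against 7.18, 6.93 and 7.2 in blood, and was 11.3-fold higher (adjusted p = 5.78e-11). The scavenger receptor gene Msr1 was at least 4.62-fold higher, Fabp5, a fatty acid carrier, 8.99-fold, and Adgre1, which encodes the F4/80 antigen, at least 2.17-fold. Marco, another scavenger receptor, was the only member lower (-0.39, adjusted p = 0.0488), with both means under the controls and a call lost in most alternatives. Acod1, which makes the immunomodulatory metabolite itaconate, measured 10.45, 8.86 and 10.07 in fluid and 4.60, 3.95 and 4.37 in blood (5.49 ± 0.37, adjusted p = 5.56e-12). A further probe set of Acod1 gave a smaller difference, 1.22. Saa3, a local acute phase protein of macrophages and stromal cells, measured 9.93, 10.49 and 9.93 in fluid and 4.31, 4.72 and 5.15 in blood (5.39 ± 0.27, adjusted p = 7.32e-15).

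Monocyte genes were mixed, with 4 of 10 higher, 1 lower and a median of 0.08. For the 7 members with a group mean above the negative controls, the median was 1.67 with the same counts. All 7 passed that level in fluid and 6 in blood, so this median follows in part from the choice. Without blood replicate 1, 2 of the 10 were lower. Cd14, the co-receptor for lipopolysaccharide, measured 12.86, 12.40 and 12.54 in fluid, against 9.09, 8.57 and 8.99 in blood, and was 13.2-fold higher (3.72 ± 0.25, adjusted p = 2.94e-12). Csf1r, the receptor on which macrophages depend for survival, measured 10.28, 10.21 and 10.16 in fluid, against 8.95, 8.24 and 8.13 in blood, and was 3.42-fold higher (adjusted p = 7.02e-06). Lyz2, a lysozyme, was 3.25-fold higher (adjusted p = 0.00797), a call lost without blood replicate 2. Cx3cr1, a receptor of patrolling monocytes, did not pass (-0.35, adjusted p = 0.111). Irf8, a transcription factor of monocytes, dendritic cells and B cells, measured 8.59, 9.14 and 8.73 in fluid, against 10.22, 9.82 and 9.64 in blood, and was 2.11-fold lower (adjusted p = 0.000469).

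**Figure D3:**
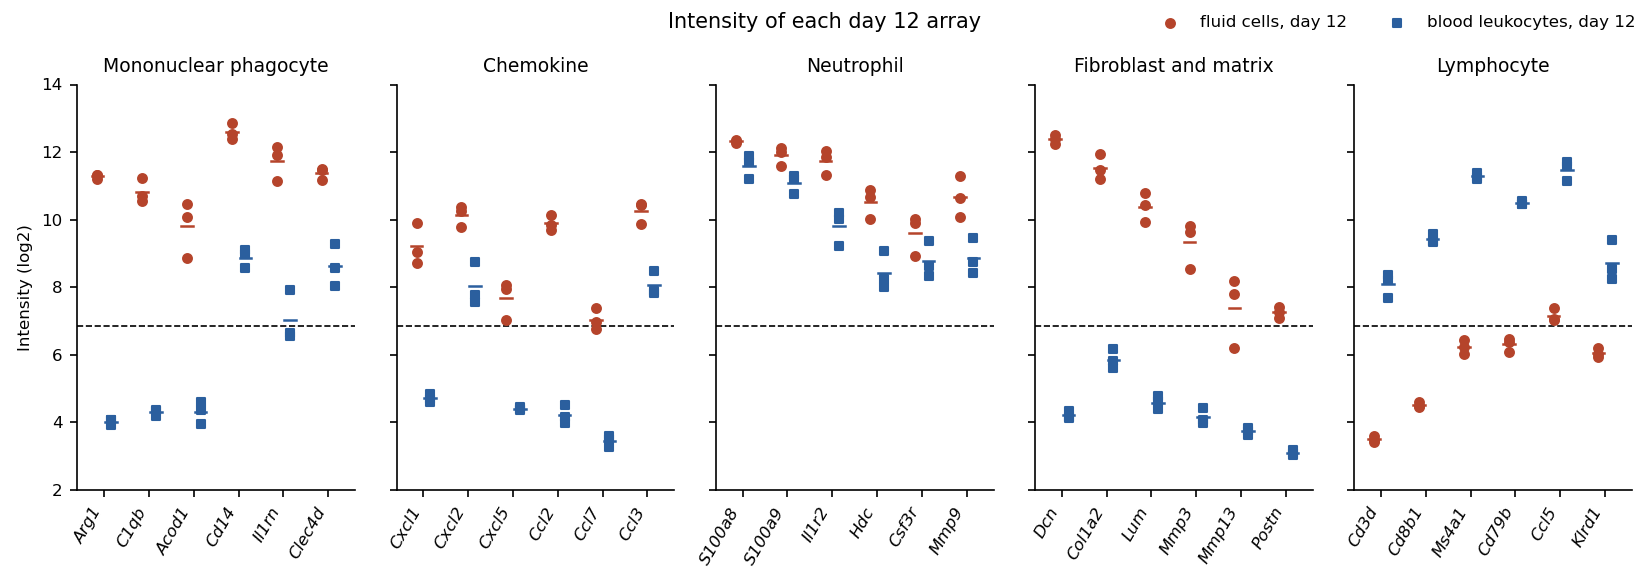
Intensity (log2) of every day 12 array for 30 genes in 5 groups; red circles are fluid cells, blue squares blood leukocytes, bars the means of 3 arrays, and the dashed line the negative control level of 6.85. Arg1, C1qb, Ccl2, Dcn and Lum sit at background in blood, while Cd3d, Cd8b1 and Ms4a1 sit under the line in fluid, and neutrophil genes exceed it on both sides.

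Lysosomal genes were raised almost without exception, 21 of 22 higher and 0 lower, with a median of 2.17. The remaining member, Ctse, which was named after its value was seen, differed by 0.03 (adjusted p = 0.913). Ctsk, a collagen-degrading protease known from osteoclasts and also made by macrophages and fibroblasts, measured 11.67, 10.95 and 11.82 in fluid and 6.20, 5.96 and 6.62 in blood (5.22 ± 0.29, adjusted p = 5.93e-14), at least 24.8-fold. Ctsl, a general endosomal protease, measured 11.67, 11.19 and 11.99 in fluid and 6.87, 6.56 and 6.18 in blood (5.08 ± 0.36, adjusted p = 1.33e-11), at least 27.1-fold. Ctsb measured 11.59, 11.21 and 11.75 in fluid, against 8.72, 8.48 and 8.38 in blood, and was 7.94-fold higher (adjusted p = 9.09e-12). For each of these, all 3 fluid arrays exceeded all 3 blood arrays. Legumain (Lgmn), an asparaginyl protease, was at least 5.58-fold higher, and Cstb, an inhibitor of cathepsins, 13.9-fold. Npc1, which exports cholesterol from lysosomes, was 5.31-fold higher (adjusted p = 2.39e-11). Grn, a lysosomal regulator, was at least 8.73-fold higher, but a further probe set, also above the controls, gave -0.22, so its direction depends on the probes. Ctsd, the main aspartic protease, measured 12.15, 11.80 and 12.02 in fluid, against 9.83, 9.98 and 10.10 in blood, and was 4.05-fold higher (2.02 ± 0.19, adjusted p = 4.35e-09). Its promoter is shown because it holds the palindrome through which TFEB factors are known to act on lysosomal genes, and the capitals mark this core, TCACGTGA, sought on both strands.
Ctsd (chr7:142387778-142388077, - strand): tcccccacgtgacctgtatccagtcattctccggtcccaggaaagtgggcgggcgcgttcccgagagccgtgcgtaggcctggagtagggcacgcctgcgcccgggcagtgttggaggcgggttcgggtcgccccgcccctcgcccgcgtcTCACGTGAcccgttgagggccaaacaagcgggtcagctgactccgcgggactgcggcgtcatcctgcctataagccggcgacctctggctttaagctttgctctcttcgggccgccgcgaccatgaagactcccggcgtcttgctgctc
Of 16 lysosomal genes with a promoter in the RefSeq table, 2 held this core, Ctsd and Ctsa, against 304 of all 27025 genes (1.12%). For the other 14, no match says only that these letters are not in the window.

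Of 24 cytokine and antagonist genes measured, 9 were higher in fluid and 2 lower. Il1rn, the natural antagonist of the interleukin 1 receptor, measured 12.15, 11.13 and 11.90 in fluid, against 7.91, 6.56 and 6.65 in blood, and was 25.8-fold higher (4.69 ± 0.51, adjusted p = 4.33e-08). Il1b, the cytokine it opposes, named after its values were seen, measured 10.71, 9.48 and 10.88 in fluid and 9.51, 8.48 and 8.61 in blood. The lowest fluid array lay under the highest blood array, and the 2.81-fold difference (1.49 ± 0.48, adjusted p = 0.018) was no longer called without fluid replicate 1, fluid replicate 3, blood replicate 2 or blood replicate 3. Csf1, the macrophage growth factor, measured 10.19, 9.92 and 9.77 in fluid, against 7.3, 7.26 and 7.51 in blood, and was 6.08-fold higher (2.60 ± 0.25, adjusted p = 4.94e-09). Inhba, a subunit of activin A, was at least 2.32-fold higher (2.38 ± 0.25, adjusted p = 2.75e-08), and Hbegf, a ligand of the EGF receptor, at least 2.81-fold (1.67 ± 0.20, adjusted p = 2.51e-07). Tnf, also named after its values were seen, measured 7.28, 6.69 and 6.93 in fluid and 6.00, 6.21 and 6.15 in blood, close to the controls on both sides (0.85 ± 0.22, adjusted p = 0.0038). Tnfsf11, which encodes the osteoclast factor RANKL, was higher by 1.38 ± 0.25 (adjusted p = 0.000127) with both means under the controls. Il6, named after its value was seen, did not pass (0.44, adjusted p = 0.0936), and both its means lay under the controls. Ifng fell by 1.41 on the log2 scale, also under the controls.

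Among 28 receptors of interleukins and of the TNF family, 12 were higher and 4 lower, the lower count near the share over all genes. Tnfrsf1b, the TNF receptor of leukocytes, measured 9.95, 9.72 and 9.89 in fluid, against 8.18, 7.36 and 7.65 in blood, and was 4.37-fold higher (2.13 ± 0.20, adjusted p = 2.07e-09). Csf2rb2, a signalling chain of the interleukin 3 receptor in the mouse, was at least 3.47-fold higher (adjusted p = 1.15e-06). The 4 lower were Il18r1, Il7r, Tnfrsf4 and Il2rb. The call of Il2rb was lost without fluid replicate 1, fluid replicate 3, blood replicate 2 or blood replicate 3. It was also lost with the compared groups alone in the fit or with the replicate block. Il7r, needed by T cells for survival, measured 7.68, 7.33 and 7.52 in fluid, against 10.20, 9.0 and 8.72 in blood, and was 3.47-fold lower (adjusted p = 0.000525), and Il18r1, carried by NK and T cells, was at least 2.17-fold lower (adjusted p = 1.83e-09).

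Activating and inhibitory Fc receptors were both raised, in a list of 8 with 4 higher and 2 lower. Fcgr1, the high-affinity receptor of IgG on macrophages, measured 8.76, 8.65 and 9.58 in fluid and 6.05, 5.77 and 5.98 in blood (3.06 ± 0.32, adjusted p = 1.77e-08), at least 4.43-fold. Fcgr2b, the inhibitory receptor, measured 7.74, 8.60 and 8.49 in fluid and 6.61, 5.94 and 6.04 in blood (2.08 ± 0.24, adjusted p = 9.53e-08). Fcer1g, the signalling chain that activating receptors share, measured 7.81, 7.89 and 8.43 in fluid and 6.30, 6.26 and 6.31 in blood (1.75 ± 0.31, adjusted p = 6.91e-05). All 3 fluid arrays exceeded all 3 blood arrays for each of these genes. Fcgr3 differed by 0.04 ± 0.16 (adjusted p = 0.858) with both means under the controls, so this receptor, which drives K/BxN arthritis, was not measured above background. Fcer2a, the IgE receptor of B cells, fell by 1.89 on the log2 scale (adjusted p = 2.78e-08). Of 16 complement genes 7 were higher, among them the C1q chains, and 2 lower. The lower count was 5 without blood replicate 1 and 1 without blood replicate 2. Serping1, the C1 inhibitor, was at least 4.3-fold higher than blood (2.74 ± 0.21) and lay at -2.24 relative to whole ankle. Cfp, or properdin, was higher by 2.33 ± 0.32 (adjusted p = 2.66e-06). Of 5 subunits of the phagocyte oxidase, Cyba was 2.42-fold and Ncf4 2.01-fold higher, while Rac2 was 1.69-fold lower (adjusted p = 0.0122), a call lost without fluid replicate 2.

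Enzymes that handle oxidants, and those of glycolysis, were more often higher than lower in fluid. Antioxidant and stress genes were higher in 13 of 21 and lower in 2. The lower count was 0 without fluid replicate 1 and 1 without fluid replicate 3 or blood replicate 3, and quantile normalization anew gave 11 higher and 5 lower. The metallothionein Mt2, which binds zinc and is induced by stress and glucocorticoids, measured 12.57, 12.88 and 12.78 in fluid and 6.86, 6.92 and 7.28 in blood. It was 52.8-fold higher (5.72 ± 0.19, adjusted p = 2.21e-18), and its relative Mt1 at least 16.5-fold (4.37 ± 0.25, adjusted p = 1.41e-13). Relative to whole ankle of the same day, Mt2 in fluid lay 0.13 above (log2). Prdx4, a peroxidase of the secretory pathway, was at least 3.1-fold higher, thioredoxin (Txn1) 3.31-fold, Sod2 2.79-fold and Hmox1 2.42-fold. Glycolytic genes were higher in 8 of 15 and lower in 2, or in 1 without fluid replicate 1 or blood replicate 3. The higher count was 6 without fluid replicate 3 or with the compared groups alone in the fit. Tpi1 measured 10.05, 10.04 and 10.48 in fluid, against 7.62, 7.74 and 7.63 in blood, and was 5.76-fold higher (2.53 ± 0.18, adjusted p = 1.09e-11). Pgam1 was 3.61-fold and Ldha, which makes lactate, 3.1-fold higher, while Hk1, the first enzyme of the path in many leukocytes, was 1.92-fold lower (adjusted p = 0.000364). Hypoxia response genes were higher in 7 of 16 and lower in 0, or in 1 without blood replicate 3. Hif1a, its transcription factor, was 2.32-fold higher (1.21 ± 0.25, adjusted p = 0.00041).

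Transcripts of inflammatory signalling split. NF-kB targets and feedback regulators were higher in 8 of 26 and lower in 3, with a median of 0.23. Socs3, a brake on cytokine signalling, measured 9.18, 8.42 and 8.81 in fluid, against 7.74, 6.20 and 6.74 in blood, and was 3.76-fold higher (adjusted p = 0.000174). A further probe set of Socs3 gave a smaller difference, 0.66. Gadd45b was at least 3.84-fold higher. Birc3 and Tnfaip3 were lower, as was Irf1 (-1.17, adjusted p = 0.0113), whose call was lost without fluid replicate 2 or blood replicate 1. Immediate early genes were higher in 7 of 29 and lower in 3, and only 4 were higher without blood replicate 2. Quantile normalization anew gave 7 higher and 7 lower. Egr2 and Jun were higher by 1.58 and 0.96, and Dusp2 fell by 1.40 on the log2 scale. Interferon response genes were higher in 8 of 26 and lower in 3, a lower count of 0 without fluid replicate 2 or without blood replicate 1. Quantile normalization anew gave 7 higher and 7 lower, and a fit with the replicate block 8 higher and 7 lower. Ifit1 measured 7.72, 7.03 and 7.90 in fluid and 5.39, 4.93 and 4.84 in blood (2.50 ± 0.26, adjusted p = 2.79e-08), and Ifi204 was 3.58-fold higher (adjusted p = 2.82e-06). Isg15 was 2.27-fold higher. Igtp, a GTPase induced by interferon gamma, fell by 1.04 on the log2 scale (adjusted p = 0.00847), a call lost without fluid replicate 2 or blood replicate 1. Of 22 proliferation genes 6 were higher and 1 lower, a lower count of 0 without fluid replicate 1, fluid replicate 2 or blood replicate 1 and of 3 under quantile normalization anew. Among them was Cdk1, the mitotic kinase, at 7.08, 7.12 and 7.26 in fluid and 5.46, 5.95 and 5.63 in blood (1.48, adjusted p = 3.68e-07). Of 18 genes of survival and death 4 were higher, near the share over all genes, and 6 lower. The death ligand Fasl, carried by cytotoxic lymphocytes, fell by 2.69 on the log2 scale, and the survival gene Mcl1 was 1.85-fold higher.

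Adhesion molecules hold leukocytes to vessel walls, matrix and each other. Of 25 measured 7 were higher and 4 lower, and 4 were higher without fluid replicate 3, without blood replicate 2 or without blood replicate 3. Quantile normalization anew gave 5 higher and 6 lower. Itgav, an integrin chain of macrophages and fibroblasts that binds vitronectin, was 4.31-fold higher (2.11 ± 0.24, adjusted p = 8.51e-08). Further probe sets of Itgav gave smaller differences, 1.0 and 0.32. Vcam1, an adhesion molecule of activated endothelium and of synovial fibroblasts, measured 8.07, 6.61 and 8.10 in fluid and 4.48, 4.68 and 4.50 in blood (3.04 ± 0.29, adjusted p = 3.22e-09). Its further probe sets gave 2.11 and 0.14. Icam2 was at least 2.3-fold lower and Itgb7, which pairs with alpha 4 to lead lymphocytes to the gut, 2.32-fold lower. Of 16 genes of leukotrienes and prostaglandins 5 were higher and 3 lower, with 1 lower without fluid replicate 2, without fluid replicate 3 or with the compared groups alone in the fit, and 2 higher with a floor under dim values. Ltc4s, the synthase of cysteinyl leukotrienes, measured 7.56, 8.38 and 8.04 in fluid and 5.90, 6.17 and 6.61 in blood (1.77 ± 0.20, adjusted p = 6.46e-08). Alox12, the lipoxygenase of platelets, fell by 1.66 on the log2 scale.

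Fibroblast and matrix genes were the other large group in fluid, with 17 of 21 higher, 1 lower and a median of 2.68. Dcn, which encodes the collagen-binding proteoglycan decorin, measured 12.40, 12.25 and 12.52 in fluid and 4.13, 4.15 and 4.35 in blood. It had the largest difference of all genes that the rule for named genes admits, 8.18 ± 0.33 (adjusted p = 1.54e-16) and at least 46.5-fold. Col5a2 measured 11.12, 10.63 and 10.77 in fluid and 4.58, 4.25 and 4.97 in blood (6.24 ± 0.19, adjusted p = 6.67e-19). Lum, another small proteoglycan, measured 10.44, 9.92 and 10.78 in fluid and 4.39, 4.62 and 4.77 in blood (5.79 ± 0.31, adjusted p = 4.25e-14). Blood arrays held these 3 genes under the negative control level. Col3a1 averaged 11.93 ± 0.30 in fluid and 6.88 ± 0.16 in blood (SD, 3 arrays each), and was 33.1-fold higher (adjusted p = 2.26e-15). Bgn was 22.2-fold higher (4.47 ± 0.24, adjusted p = 2.98e-14), and Col1a1 4.96-fold (2.31 ± 0.30, adjusted p = 7.32e-07). A further probe set of Bgn, above the controls in both groups, gave a smaller difference, 1.13. Col1a2 rose by 5.68 ± 0.24, but a further probe set above the controls gave -0.26. Sparc, a matrix-associated protein, was higher by 6.27 ± 0.37. Outside the list, Gja1, the gap junction protein of connective tissue, was higher by 6.91 ± 0.21, and the collagen chaperone Serpinh1 by 5.64 ± 0.32. Thy1 went the other way at 6.39, 6.29 and 5.77 in fluid and 9.32, 8.58 and 8.35 in blood (-2.60 ± 0.27, adjusted p = 2.04e-08). In the mouse it marks T cells as well as fibroblasts. The genes of the fibroblast marker sum, Col1a1, Col1a2, Col3a1, Dcn and Lum, are themselves members of this list. The sum therefore moves with the list by construction. Its part in the rise of the other members was not tested.

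Of 15 matrix metalloproteinases, TIMPs and related genes, 7 were higher in fluid, 0 lower and 8 not called. The 7 were Mmp2, Mmp3, Mmp9, Mmp13, Mmp14, Timp1 and Timp3, and the call of Mmp2 was lost with the mean of all probe sets. Promoters of Mmp3 and Mmp13 are printed because the means of both genes lay under the negative control level in blood and in fluid of day 3, and above it in fluid of day 12. Each holds an AP-1 match, in capitals (TGACTCA on either strand), before the start.
Mmp3 (chr9:7445572-7445871, + strand): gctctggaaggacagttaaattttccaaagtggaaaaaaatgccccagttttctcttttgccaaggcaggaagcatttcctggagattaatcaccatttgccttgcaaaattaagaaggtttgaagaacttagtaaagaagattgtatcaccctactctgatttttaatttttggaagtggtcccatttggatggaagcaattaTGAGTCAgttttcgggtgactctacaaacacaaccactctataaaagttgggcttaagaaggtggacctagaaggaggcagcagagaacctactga
Mmp13 (chr9:7272264-7272563, + strand): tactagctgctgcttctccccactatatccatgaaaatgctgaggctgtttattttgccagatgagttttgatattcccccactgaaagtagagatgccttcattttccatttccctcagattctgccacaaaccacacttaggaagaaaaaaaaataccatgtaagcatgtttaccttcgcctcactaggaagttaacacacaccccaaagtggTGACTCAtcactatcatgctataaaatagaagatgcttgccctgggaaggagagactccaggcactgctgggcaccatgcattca
AP-1 matches occurred in 6 of the 12 list members with a promoter, Mmp3, Mmp7, Mmp10, Mmp12, Mmp13 and Plaur. Of all 27025 genes with a RefSeq promoter, 1607 held such a match (5.95%). Mmp3, or stromelysin 1, a broad protease of synovial fibroblasts, measured 9.81, 8.55 and 9.63 in fluid and 4.07, 3.97 and 4.44 in blood (5.16 ± 0.30, adjusted p = 2.55e-13), at least 5.57-fold. Mmp13, the main collagenase of the mouse joint, measured 8.19, 6.19 and 7.80 in fluid and 3.63, 3.84 and 3.75 in blood (3.65 ± 0.41, adjusted p = 9.49e-08). Fluid replicate 2 was the lowest fluid array for both proteases, and also for the fibroblast marker sum. Mmp14, a membrane-bound activator of other proteases, was at least 4.18-fold higher (2.29 ± 0.25, adjusted p = 5.91e-08). The inhibitor Timp1 measured 12.17, 12.56 and 12.42 in fluid, against 8.57, 9.09 and 9.34 in blood, and was 10.4-fold higher (adjusted p = 1.78e-11), although a dim further probe set gave -0.05. Timp3 measured 6.83, 7.15 and 7.78 in fluid and 4.39, 4.46 and 4.77 in blood (2.71 ± 0.22, adjusted p = 2.33e-10).

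Other cells of the joint were poorly represented. Of 14 cartilage and bone genes, 1 was higher and 2 lower, a lower count of 4 without blood replicate 1 and of 1 without fluid replicate 1, fluid replicate 3, blood replicate 2 or blood replicate 3. The one higher was Acp5, an acid phosphatase of osteoclasts and macrophages, at 9.89, 8.79 and 9.65 in fluid and 8.14, 8.71 and 7.99 in blood (1.16 ± 0.34, adjusted p = 0.00886), a call lost without fluid replicate 1. Of 11 endothelial genes 2 were higher and 1 lower, with 1 higher when any array but fluid replicate 3 or blood replicate 3 was left out, and 2 lower without blood replicate 1. Eng, a co-receptor for TGF-beta also found on macrophages and fibroblasts, was 2.04-fold higher than blood and lay at -1.58 relative to whole ankle. Skeletal muscle genes were higher in 0 of 16 and lower in 3, near the share over all genes. That lower count was 9 without blood replicate 1 and 1 without fluid replicate 1, blood replicate 2 or blood replicate 3. Mast cell genes were lower in 3 of 11 and higher in 0, with 1 lower without blood replicate 3. Hepatocyte genes were lower in 2 of 10, near the share over all genes. That count was 5 without blood replicate 1 and 0 without fluid replicate 1, blood replicate 2 or blood replicate 3. Both means lay under the negative controls for all 10 hepatocyte genes, so these counts were made at background. Under quantile normalization anew 6 muscle genes were lower.

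Genes of lymphocytes were lower in fluid. Of 16 B cell genes, 15 were lower and 0 higher, with a median of -1.71. Ms4a1, which encodes CD20, measured 6.44, 6.24 and 6.03 in fluid and 11.37, 11.20 and 11.27 in blood. It was at least 21.5-fold lower (-5.04 ± 0.24, adjusted p = 3.68e-15). Cd79b, a signalling chain of the B cell receptor, measured 6.46, 6.37 and 6.09 in fluid, against 10.55, 10.47 and 10.47 in blood, and was at least 12.5-fold lower (adjusted p = 3.07e-15). The kinase Blk and the coactivator Pou2af1 fell by 4.57 and 4.56 on the log2 scale. Fluid arrays lay under the negative controls for all 4 of these genes. Immunoglobulin transcripts went with them. Ighm was 15.3-fold lower, and Igkv6-23 at least 12.9-fold, though probe sets of immunoglobulin and receptor segments, such as that of Trbv1, can bind related segments and their identity is uncertain.

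Of 19 T cell genes, 16 were lower and 0 higher, with a median of -1.50. Cd3d, a chain of the T cell receptor complex, measured 3.41, 3.48 and 3.61 in fluid and 8.37, 8.22 and 7.69 in blood (-4.59 ± 0.25, adjusted p = 6.71e-14). Cd8b1, the CD8 beta chain, measured 4.61, 4.49 and 4.45 in fluid, against 9.58, 9.35 and 9.36 in blood, and was at least 5.98-fold lower (adjusted p = 6.48e-15). The adhesion receptor Cd2 and the costimulator Cd28 fell by 3.63 and 3.04 on the log2 scale. All 12 genes of NK cells and cytotoxic lymphocytes were lower, with a median of -1.29. For 6 of them both means lay under the negative controls. The other 6 exceeded these in blood, where they were higher, and only 1 did so in fluid. Their median of -3.52 follows in part from that choice. With a floor under dim values, 10 of the 12 were lower. Gzma, a granzyme, measured 4.18, 4.19 and 4.44 in fluid and 8.15, 8.13 and 7.61 in blood (-3.70 ± 0.24, adjusted p = 1.35e-12). Gzmb was at least 3.8-fold and Klrd1, which encodes CD94, at least 3.68-fold lower. Klra3 fell by 3.84 on the log2 scale, but receptors of the Klra family share sequence and its signal may hold relatives. Gimap4, a GTPase of lymphocytes with close relatives, measured 6.50, 6.39 and 6.52 in fluid and 11.68, 11.72 and 11.38 in blood (-5.13, adjusted p = 2.21e-18).

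MHC class II molecules present antigen to helper T cells and are carried by B cells, dendritic cells and macrophages. Of 12 genes of MHC class II presentation, 10 were lower and 2 higher, with a median of -1.06. H2-Aa, a class II chain named after its values were seen, measured 10.75, 10.69 and 11.02 in fluid, against 11.72, 12.05 and 12.06 in blood, and was 2.17-fold lower (-1.12 ± 0.30, adjusted p = 0.00535). It remained an abundant transcript in fluid. Cd74, the invariant chain, measured 8.56, 8.31 and 8.10 in fluid, against 9.96, 9.78 and 9.87 in blood, and was 2.92-fold lower (adjusted p = 6.98e-06). H2-Ob and H2-Oa, the chains of the modulator DO known from B cells, were at least 1.75-fold and 3.64-fold lower. The 2 genes that were higher encode lysosomal enzymes of phagocytes, the thiol reductase Ifi30 (3.42-fold) and the protease cathepsin S. Ctss measured 13.11, 12.55 and 12.95 in fluid, against 11.87, 11.15 and 11.24 in blood, and was 2.74-fold higher (adjusted p = 0.00695). Of 12 dendritic cell genes 2 were higher and 3 lower, shares near those over all genes, with 1 lower without fluid replicate 3 or without blood replicate 2. Cd86, a costimulator, was higher by 0.67 with both means under the controls, and its call was lost with the mean of all probe sets. Itgax, the CD11c chain, was higher by 0.56, a call lost without fluid replicate 3, blood replicate 2 or blood replicate 3.

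Red cell transcripts and some platelet transcripts were also lower in fluid. Of 13 erythroid genes 7 were lower and 0 higher. Alas2, an enzyme of haem synthesis in red cell precursors, measured 8.42, 7.80 and 8.0 in fluid, against 11.75, 12.78 and 12.48 in blood, and was 19.2-fold lower (-4.26 ± 0.59, adjusted p = 2.34e-06). Bpgm, which makes 2,3-bisphosphoglycerate in red cells, was 22.2-fold lower (adjusted p = 6.2e-07). The haemoglobin gene Hba-a1 measured 11.83, 12.48 and 11.83 in fluid and 13.54, 13.90 and 13.83 in blood, so that it stayed bright in fluid and was 3.28-fold lower (adjusted p = 0.000422). Of 7 platelet genes 5 were lower, among them Gp9 (2.08-fold, adjusted p = 0.000683). For 3 of these 5 both means lay under the negative controls. The call of Itgb3 was lost without fluid replicate 1 or blood replicate 2, with the compared groups alone and with a floor under dim values. Pf4 was not called. Blood replicate 1 held least of Alas2, Bpgm and Gp9 among the blood arrays.

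The same contrast on other days was used to place day 12 in the course of arthritis. The differences on these days share no array with that of day 12. All come from 1 fit with a shared estimate of spread, so calls on different days are not independent. At day 3, 1317 genes (16%) were higher and 1203 (14.6%) lower in fluid than in blood of that day, at day 7 1307 (15.8%) and 1129 (13.7%), and at day 18 883 (10.7%) and 673 (8.16%), with 2 blood arrays at day 18. Of the 1426 genes higher at day 12, 989 were called higher at day 3, 1046 at day 7 and 844 at day 18. Of the 1249 lower, 753, 691 and 561 were called lower on those days. Calls in the opposite direction numbered 3 at day 3, 0 at day 7 and 0 at day 18. On days 3, 7, 12 and 18 the difference for Arg1 was 7.44, 6.67, 7.26 and 6.96. For Cd14 it was 4.22, 3.16, 3.72 and 3.13, and for Il1rn 5.42, 3.83, 4.69 and 4.78 on the same days. Macrophage genes had a median of 3.45 at day 3 and 3.33 at day 12, and lysosomal genes 2.33 and 2.17. MHC class II genes had medians of -0.32, -1.08, -1.06 and -1.95 on days 3, 7, 12 and 18.

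Fibroblast and matrix genes had a different course. The change of the difference between day 3 and day 12 was tested in the same fit, where 151 genes (1.83%) had a higher difference at day 12 and 8 (0.097%) a lower one. Of the 21 fibroblast and matrix genes 14 were among those 151, and their median difference was 0.70 at day 3 and 2.68 at day 12. Lum had differences of 1.47, 4.97, 5.79 and 4.97 on days 3, 7, 12 and 18, and its change from day 3 to day 12 was 4.31 (adjusted p = 5.98e-07). Mmp3 stood at 1.00, 4.37, 5.16 and 4.66 on the same days, a change of 4.16 (adjusted p = 5.98e-07). Mmp13 stood at 0.18, 2.72, 3.65 and 2.31, a change of 3.47 (adjusted p = 0.00054). For all 3 the day 7 difference was nearer to day 12 than to day 3. Col5a2 changed by 3.67 and Postn, a matrix protein of injury and repair, by 3.47. Beyond the matrix, Cxcl5 changed by 2.91 (adjusted p = 0.00053), with a difference of 3.28 at day 12 against 0.37 at day 3, whereas the change for Cxcl1 was 1.71 (adjusted p = 0.186) and for Cxcl2 -0.48 (adjusted p = 0.965). Ackr3 changed by 2.45, Vcam1 by 2.06, Ifit1 by 1.89, Saa3 by 1.89, Mt2 by 1.61 and the RANKL gene Tnfsf11 by 1.60. Ctsk, with a change of 2.13 (adjusted p = 0.00179), was the only one of the 18 macrophage genes among the 151. Summed fibroblast markers in fluid lay between 1946 and 4075 at day 3, 8223 and 16095 at day 7, 12266 and 17208 at day 12, and 13647 and 15825 at day 18, and their part in these changes was not tested. These markers include Lum and other members of the list, so the sum is not separate from them. Labels state that day 3 fluid replicate 1 was washed out of ankles that had been dissected, and that day 3 blood replicate 3 went through another amplification. Without both, 120 genes had a higher and 7 a lower difference.

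**Figure D4:**
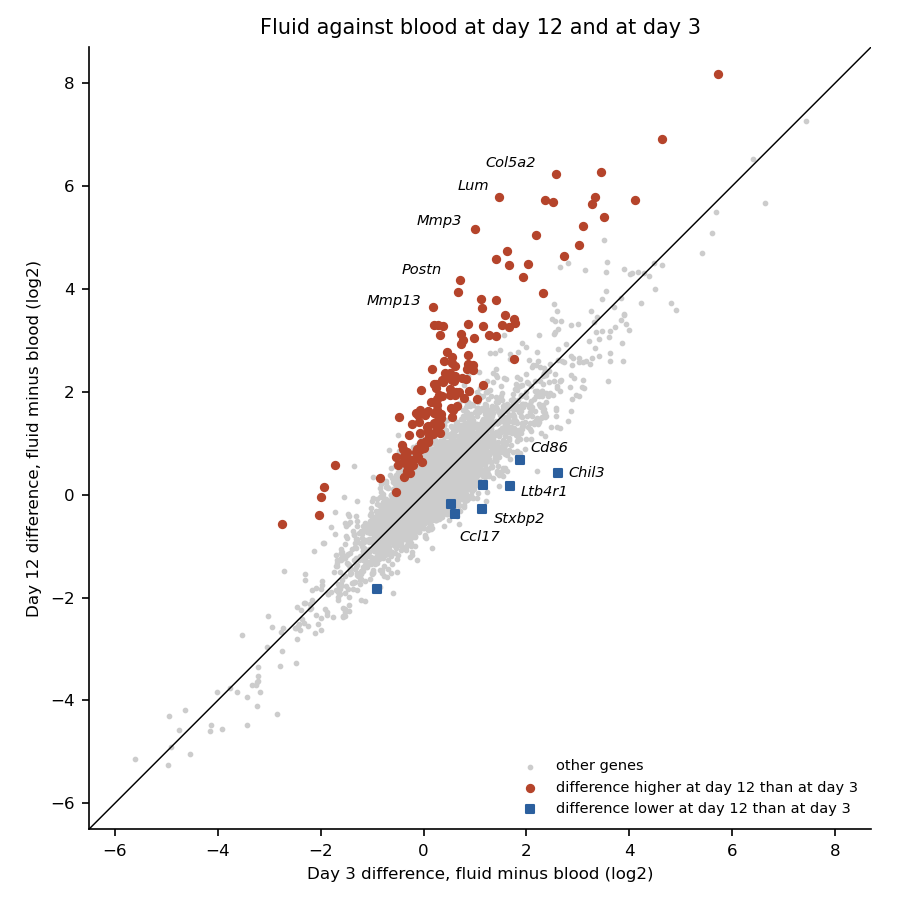
Difference between fluid and blood (log2) at day 12 against that at day 3, 1 point per gene, with the line of equality; red points had a higher and blue squares a lower difference at day 12 (adjusted p under 0.05). The 5 matrix and protease genes named beside red points had differences between 3.65 (Mmp13) and 6.24 (Col5a2) at day 12, against 0.18 and 2.57 at day 3.

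Among the 8 genes with a lower difference, Chil3, a chitinase-like lectin of neutrophils and alternatively activated macrophages, measured 7.77, 7.83 and 8.77 in fluid and 7.74, 7.18 and 8.16 in blood at day 12. Its groups overlapped, with a difference of 0.43 at day 12 against 2.61 at day 3, a change of -2.18 (adjusted p = 0.0133). Ltb4r1 changed by -1.51 (adjusted p = 0.0115), with a difference of 0.17 at day 12 against 1.68 at day 3. Cd86 changed by -1.20 (adjusted p = 0.00122). With the replicate block, Cd86 (adjusted p = 0.0793), Ltb4r1 (adjusted p = 0.0626) and Ccl17 (adjusted p = 0.0864), a further one of the 8, were no longer called. Chil3 was not called without fluid day 12 replicate 1, blood day 3 replicate 3 or blood day 12 replicate 3 (adjusted p = 0.0529, 0.0667 and 0.0564), nor Ltb4r1 without fluid day 3 replicate 1 (adjusted p = 0.052).

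Whole ankle of day 12 gave a further view of the genes that distinguished fluid from blood. Of the 1426 higher genes, 640 were higher by at least 1 and had a fluid mean above the controls. In 155 of these fluid lay at least 1 above ankle, in 451 within 1 of it, and in 34 at least 1 below it. These values share the fluid arrays with the comparison above and are given without a test, since ankle RNA was extracted with SDS and urea and amplified in 2 rounds. Of the 15 macrophage genes among the 640, fluid lay at least 1 above ankle in 10 and within 1 of it in 5, with a median of 1.72 and Arg1 at 3.44. Of 20 lysosomal genes, 12 lay at least 1 above and 8 within 1 (median 1.03), with Ctsd at 1.42 and Ctsk at 0.21. Of 6 mature neutrophil genes 5 lay at least 1 above ankle, as did 5 of 6 CC chemokines. None of the 13 fibroblast and matrix genes lay as much as 1 above ankle. Of these, 9 lay within 1 of it and 4 at least 1 below (median -0.75), with Dcn at -0.12, Lum at -0.52 and Postn at -3.50. Of 6 metalloproteinase and TIMP genes, 1 lay at least 1 above ankle, 3 within 1 and 2 at least 1 below, among them Mmp3 at -1.54. The furthest above ankle of the genes named here were Acod1 at 4.65, Il1rn at 3.99 and Ccl3 at 3.91. Of the 94 genes with a higher difference at day 12 than at day 3 and a fluid mean above the controls, 72 lay within 1 of ankle, 20 at least 1 below and 2 at least 1 above.

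**Figure D5:**
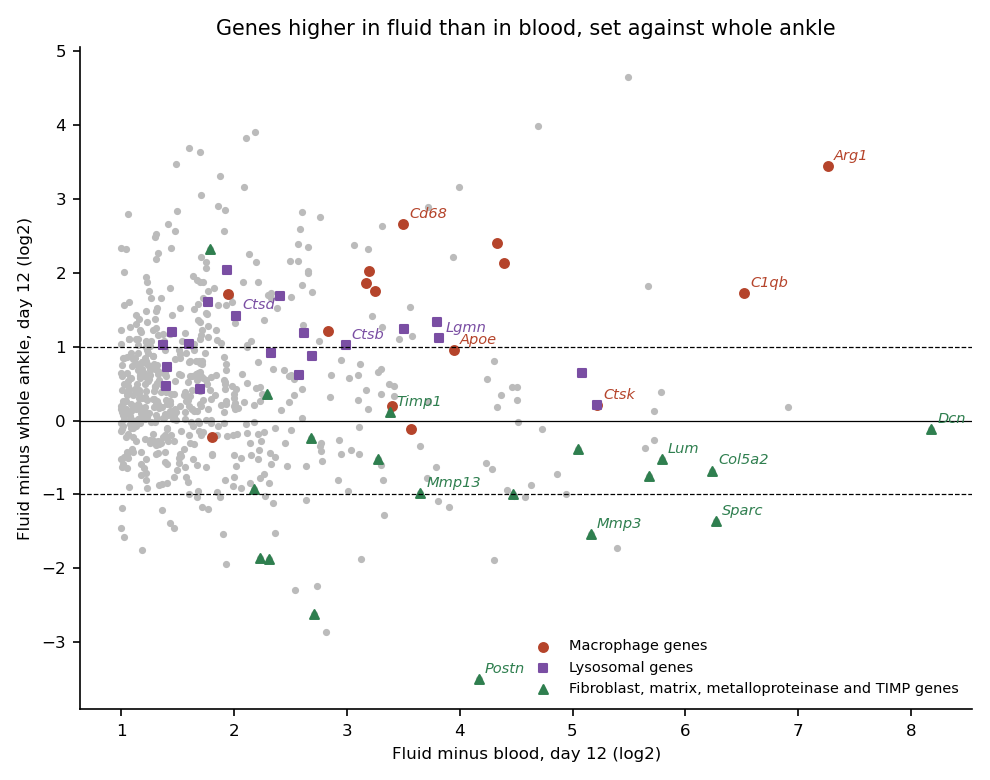
Fluid minus whole ankle at day 12 against fluid minus blood at day 12 (both log2) for the 640 genes higher in fluid than blood by at least 1 with a fluid mean above the negative controls; dashed lines mark 1 above and below ankle. Coloured points are all members of 4 gene lists among these genes: macrophage genes (red circles, 10 of 15 above the upper line), lysosomal genes (purple squares, 12 of 20 above it, with Ctsk in both lists) and fibroblast, matrix, metalloproteinase and TIMP genes (green triangles, down to -3.50 for Postn).

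The 3 fluid arrays were not alike in how strongly they showed the contrast. Of the 1426 higher genes, fluid replicate 2 was the lowest fluid array in 731, replicate 1 in 422 and replicate 3 in 273. Cxcl1, Cxcl5, Ccl4, Acod1, Il1b, Mmp3 and Mmp13 all had their lowest fluid value in replicate 2, and Mt2 and Timp1 were highest there. Fluid replicate 2 also had the highest actin ratio, 3.02, and the lowest fibroblast sum, 12266, and the part of either was not tested. Of 319 genes, 317 covered by the rule for naming and Il1b and Tnf added after their values were seen, 259 were called, and 254 of these had arrays that did not overlap. Calls held in every fit that left out 1 array for 214 of the 259, and under every alternative that tested the gene for 200. Low p, a call or arrays without overlap were part of the rule for naming, so these counts follow in part from the choice. Over all genes, 2675 of 8251 were called. Arrays did not overlap in 1347 of the 1426 higher and 1145 of the 1249 lower genes.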

How the data were processed

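Each value is the intensity of a probe set on a linear scale, deposited by the authors in 1 table of 49 arrays and made by RMA, per the submitters' processing notes. RMA subtracts background, gives every array the same distribution and merges the probes of a set, so a shift of all genes in a tissue would not be visible. The RMA version was not given in the sources used here. Columns were matched to samples by title, with 0 left over and 0 missing values.

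Of 12488 probe sets, 10833 had 1 symbol in the platform annotation, 396 had several, and 1259 had none or were controls. For each of 8251 genes the probe set brightest on average across the 49 arrays was kept, and 2073 genes had more than 1. Gene IDs were checked against a RefSeq gene table (GRCm38.p6), where 16 were not found and 0 symbols changed. Promoter windows came from RefSeq on that build.

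Log2 values of all 30 fluid and blood arrays were fitted with limma 3.58.1 in R 4.3.3 (1 mean per tissue and day, eBayes with an intensity trend). Tests were two-sided, with Benjamini-Hochberg adjustment over all genes and a threshold of 0.05. The fit was tested on simulated data with known changes. The number of arrays limits the precision.

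Genes named were Cxcr2 and its ligands, and the 15 largest differences each way among called genes whose arrays did not overlap and whose higher mean exceeded the controls. To these were added the 8 members of lowest p, or fewer, from each of 38 lists, called members against the direction of their list, the 5 largest changes each way between days 3 and 12, and markers. The genes, lists and tests were chosen with earlier results of these data known. Alternatives covered the arrays in the fit, normalization, filters, a floor, probe sets, weights, eBayes, a replicate block, a fold threshold, preparation and leaving out each array.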

Additional observations from a re-analysis of the deposited data

Results flagged for a closer look

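The difference between fluid and blood was tested for a change between day 3 and day 12, as an interaction in limma over all 8251 genes. These 10 genes follow from the naming rule, and each had a difference on day 12 that departed from that on day 3. The 5 with the largest upward change were the matrix genes Lum (4.31), Col5a2 (3.67) and Postn (3.47) and the proteases Mmp3 (4.16) and Mmp13 (3.47). The 5 with the largest downward change were the lectin Chil3 (-2.18), the leukotriene B4 receptor Ltb4r1 (-1.51), the secretion gene Stxbp2 (-1.40), the costimulator Cd86 (-1.20) and the chemokine Ccl17 (-0.99), which binds CCR4. Stxbp2 measured 7.48, 6.96 and 7.44 in fluid and 7.66, 7.50 and 7.53 in blood at day 12, and its difference was -0.27 at day 12 against 1.13 at day 3. Ccl17 had both day 12 means under the negative controls. The summed fibroblast markers of fluid lay at 12266 to 17208 at day 12 and 1946 to 4075 at day 3. Lum is itself among these markers, so the sum is not separate from it. The part of the sum in the other upward changes was not tested. Without the day 3 arrays of another preparation, Chil3 (adjusted p = 0.119), Ltb4r1 (adjusted p = 0.0771) and Stxbp2 (adjusted p = 0.217) were no longer called. Stxbp2 (adjusted p = 0.0428) also lost its call in 11 of the 12 fits that left out 1 array, with all 49 arrays (adjusted p = 0.0544) and with the mean of all probe sets (-0.67, adjusted p = 0.146). Chil3 lost it in 3 of those 12 fits (adjusted p = 0.0529 to 0.0667) and Ltb4r1 in 1, without fluid day 3 replicate 1 (adjusted p = 0.052). The replicate block ended the calls of Ltb4r1 (adjusted p = 0.0626), Cd86 (adjusted p = 0.0793) and Ccl17 (adjusted p = 0.0864), and that of Ccl17 was also lost with the compared groups alone (adjusted p = 0.0899).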

How the results depend on the processing

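The 259 called genes of 319 kept their day 12 direction under every alternative that tested them, except 8 dim genes set to the floor at the 20th percentile of each array (Birc5 -0.00, Vegfa -0.00, Ccl12 -0.03, Cxcl10, Fcgrt, Pla2g4a, Ptger3 and Rrm2 -0.05 each); values at a floor have no order. Of the 60 genes not called, 11 turned sign in at least 1 alternative. The filters tested 252 and 220 of the 319 genes. Requiring a difference of at least 1 left 764 higher and 270 lower genes, by construction. With the compared groups alone in the fit 832 genes were lower, and with only the 3697 genes above the negative controls 741. Array weights gave 2685 lower genes, and for the change from day 3 to day 12 they gave 619 upward and 507 downward; the cause was not tested. Only genes above the controls, 3845 in that test, gave 100 upward changes. Leaving out 1 array gave 1156 to 1473 higher and 850 to 1556 lower genes at day 12, and 4 to 17 downward changes from day 3 (17 without fluid day 3 replicate 3, 4 without blood day 12 replicate 2, 5 without blood day 3 replicate 2 or replicate 3). Same-numbered fluid and blood arrays of day 12 deviated together at r of 0.40, 0.38 and -0.31. Arrays of differing number did so at -0.51 to 0.40. Deviations from a mean of 3 arrays are tied to each other, so these values cannot decide whether the numbers pair the samples. A fit with the replicate block gave 1457 higher and 1045 lower genes, and 110 upward and 4 downward changes. Probe sets near the negative controls limit 4554 of 8251 genes. The 3 arrays of a group cannot separate preparation from place, and nothing in the labels says that fluid arrays came from separate mice.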

Other observations

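Genes outside the lists also stood far from blood. Fstl1, a secreted glycoprotein of stromal cells, averaged 10.04 ± 0.35 (log2) in fluid and 4.32 ± 0.36 in blood (SD, 3 arrays each). Every fluid array exceeded every blood array (5.72 ± 0.24, adjusted p = 4.22e-16), and fluid lay at -0.27 relative to whole ankle. The difference was 2.37 at day 3, so that it changed by 3.35 up to day 12 (adjusted p = 5.98e-07). In the opposite direction, Aldh1a1, an enzyme that makes retinoic acid, averaged 4.15 ± 0.04 in fluid and 8.26 ± 0.39 in blood. It fell by 4.11 on the log2 scale (adjusted p = 1.74e-07), with fluid under the negative controls and whole ankle at 6.83.

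Of 319 named genes, 93 had 126 further probe sets, and 27 of these pointed the other way. In 4 of the 27 a group mean exceeded the negative controls, for Col1a2 (-0.26), Csf3r (-0.21), Flt3 (-0.24) and Grn (-0.22). Differences for these genes depend on which probes are read.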
